A study of Sus scrofa with 16 samples.

Results

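De novo lipogenesis is the making of fatty acids from surplus carbohydrate, and it was followed here through 10 genes in pig liver. They were taken as a list of symbols, which was chosen with earlier results of these data known. They are the transcription factor genes MLXIPL and SREBF1, the enzyme genes ACLY, ME1, ACACA, ACACB and FASN, the sugar-handling genes PKLR and TKFC, and the acyltransferase gene GPAM. Of the 10 symbols, 9 had a gene identifier among the 25880 listed per library, and ACACB was not matched and is not analysed here. Reads were counted on 8 of the 9, since SREBF1 had 0 reads in all 16 pigs, and 5 of these 8 passed the filter on low counts in each pair of diets, namely MLXIPL, FASN, ACACA, ACLY and TKFC.

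Liver RNA came from 16 pigs bred from (Polish Landrace x Polish Large White) sows and (Duroc x Pietrain) boars, fattened in single pens until they weighed 118 kg, with a start near 60 kg. The fat in the feed was rapeseed oil for the 5 pigs of group R (3 were gilts), beef tallow for the 5 pigs of group B (2 were gilts) and coconut oil for the 6 pigs of group C (3 were gilts), and the other pigs were barrows. Energy and protein were alike in the 3 feeds, and no group received feed without one of these fats, so each diet was compared only with the other two. The animals carried no transgene, and each library came from 1 pig.

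In the liver, sugar arriving after a meal activates the transcription factor ChREBP, the product of MLXIPL, while insulin activates SREBP-1c, a product of SREBF1, and both factors bind near the genes of the same enzymes. These enzymes cut citrate to acetyl-CoA, carboxylate it to malonyl-CoA, and join malonyl-CoA units to palmitate with NADPH as the reductant. In pigs, adipose tissue makes most of the fatty acids and the liver a small part.

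Libraries were read from the 3′ ends of mRNA, and between 705669 and 1767671 reads per pig fell on genes (median 1018321.5). The hepatocyte markers, ALB and APOA1 among them, summed to between 67804 and 174824 normalized counts (CPM, scaled to the library's reads on genes) in every pig. ALB alone was at 27961 to 139889 CPM. All 8 had reads, but SERPINA1 had only 7 over the 16 pigs, and ASGR1 was at 0.671 CPM in its lowest pig. The lowest sum and the lowest ALB and ASGR1 values were all those of beef tallow pig 3. The summed level of 6 adipocyte markers lay between 4.07 and 23.4 CPM, and LEP, which encodes the fat cell hormone leptin, was at 0 in all 16 pigs. In bulk liver RNA, a smaller share of cells that express a gene and less RNA per cell cannot be told apart.

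MLXIPL (ENSSSCG00000007710, chromosome 3 from 10898675 to 10934257) had the largest difference between diets among the 5 lipogenesis genes tested. Every pig fed coconut oil had less MLXIPL mRNA than every pig fed rapeseed oil. In group R its normalized counts in pigs 1 to 5 were 77.3, 102, 100.1, 63.8 and 149.8 CPM. In group B they were 67.1, 40.2, 108.6, 51.6 and 105.6 CPM, and in group C the 6 pigs had 44.3, 57.1, 50.7, 59.6, 31.4 and 28.0 CPM. Group B overlapped with both other groups. The means were 98.6 ± 32.8 CPM with rapeseed oil (SD, n = 5), 74.6 ± 31.2 CPM with beef tallow (n = 5) and 45.2 ± 13.2 CPM with coconut oil (n = 6). Of all 6528 genes tested in this pair, 0.904% also had every group C pig below every group R pig.

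The log2 fold change of MLXIPL in group C against group R was -1.15 (standard error 0.24, 95% interval -1.66 to -0.65). Its unadjusted p was 0.000139, rank 13 of 6528 genes, and its edgeR adjusted p was 0.0644, above the threshold of 0.05. DESeq2, the tool used by the authors, gave a log2 fold change of -1.14 with an adjusted p of 0.00315 on the same pigs, so the call depended on the test. The paper lists MLXIPL among the top genes of this pair, so the DESeq2 call repeats the paper's own. MLXIPL also passed in edgeR without the filter on low counts (adjusted p = 0.000587, with 0.539% of all genes called) and with at least 10 reads in every pig (0.0480, 0.311%). It passed too with a robust prior (0.0457, 0.199%) and without rapeseed oil pig 4 (0.0268, 0.366%), the pig of its group with the lowest level. In all, 5 of 20 alternative settings passed, among them 1 of the 11 fits without 1 pig. Across all 20 alternative settings the log2 fold change stayed between -1.27 and -0.95, and the adjusted p ranged from 0.000587 to 0.195. The value nearest to 0, -0.95, was found without rapeseed oil pig 5, the pig with the highest level.

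Between group B and group C, the log2 fold change of MLXIPL was -0.75 (standard error 0.28, 95% interval -1.34 to -0.15, unadjusted p = 0.0168, edgeR adjusted p = 0.339). For group B against group R it was -0.39 (standard error 0.29, 95% interval -1.01 to 0.22, edgeR adjusted p = 0.558). Neither passed the threshold under any of the alternatives, and without 1 pig the second value ran from -0.58 (without beef tallow pig 3) to -0.18 (without rapeseed oil pig 5). The 3 pairs of diets share pigs, so these values are not independent of each other. In 1 test over the 3 diets, MLXIPL had an unadjusted p of 0.00184 and an edgeR adjusted p of 0.0962, with DESeq2 the adjusted p was 0.0199, and in edgeR without the filter it was 0.00818 (1.2% of all genes called).

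Some markers of other cells and the mapping varied within and between the groups, and these differences were not tested. The summed level of 8 Kupffer cell or macrophage markers ranged from 607 to 1137 CPM with rapeseed oil, from 832 to 1735 CPM with beef tallow and from 605 to 866 CPM with coconut oil. All 8 had reads, CSF1R only 7 in total. C1QA had the most, 8790, and the single markers did not all follow the sum, since CD163 (2605 reads) was not lower in group C. The highest sum was that of beef tallow pig 3. The 8 B, plasma or T cell markers summed to 31.7 to 84.4 CPM in group R, 27.3 to 72.4 CPM in group B and 27.1 to 51.8 CPM in group C. JCHAIN (391 reads) and CD2 (314 reads) had the most reads of this list, and CD3D, with 41 reads, did not follow the sum. The median summed level of 4 detected erythroid markers was 1322 CPM in group R, 2151 CPM in group B and 2733 CPM in group C. That of 4 detected muscle markers was 41.2, 43.6 and 21.6 CPM in the same order, with overlapping ranges for both lists. For the hepatocyte markers the medians were 124091, 108020 and 121686 CPM. They were 315, 383 and 326 CPM for the endothelial markers and 471, 506 and 481 CPM for the stellate cell or fibroblast markers. The median share of reads with several alignments was 26.5% with rapeseed oil, 22.2% with beef tallow and 19.8% with coconut oil. Its ranges overlapped, at 21.9% to 32.5%, 19.3% to 33.2% and 15.4% to 38.1% in the same order. Their part in the MLXIPL values was not tested.

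**Figure D1:**
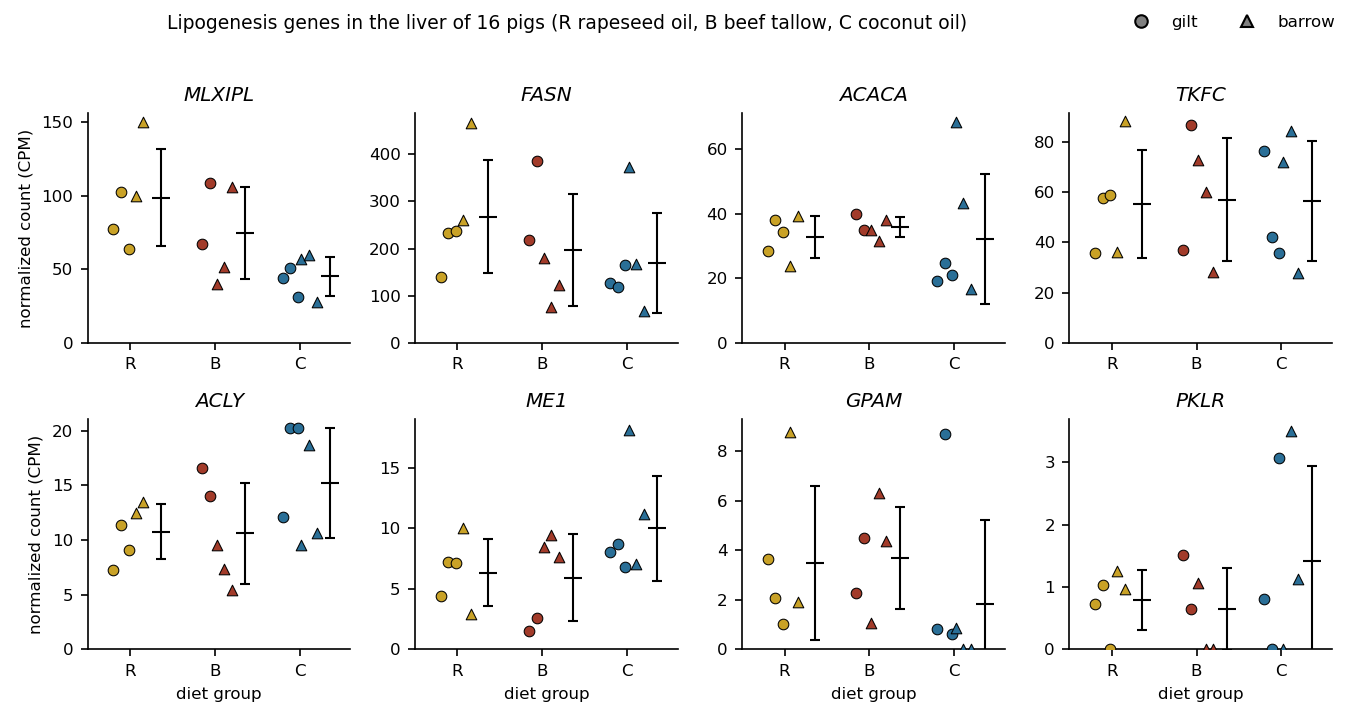
Normalized counts (CPM, linear axes from 0) of the 8 lipogenesis genes with reads in each pig, by diet group, with circles for gilts, triangles for barrows and bars for the mean ± SD; a bar that would reach below 0 ends at the axis. The 6 coconut oil pigs lie between 28.0 and 59.6 CPM for MLXIPL, below all 5 rapeseed oil pigs, while for FASN, ACACA, TKFC and ACLY the groups overlap.

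SREBF1 (ENSSSCG00000033626, chromosome 12 from 60733967 to 60750951), the gene of the insulin-responsive factor, was listed with 0 reads in every pig. A count of 0 among the 18234951 reads of all pigs allows a level of up to 0.165 CPM (3 reads, for counting error only). Reads that ended outside the annotated gene model would not have been counted on it, and so nothing can be said about its mRNA from this table.

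FASN (ENSSSCG00000029944, chromosome 12 from 922405 to 937560) encodes fatty acid synthase, which builds palmitate. In group R the 5 pigs had 141, 233, 260.2, 237 and 467 CPM, and in group B they had 218, 181, 385, 76.9 and 123 CPM. In group C the values were 126, 372, 119, 168, 165 and 67.8 CPM. The lowest rapeseed oil pig lay below 3 of the coconut oil pigs, and all 3 groups overlapped. The log2 fold change of group C against group R was -0.66 (standard error 0.34, 95% interval -1.37 to 0.05, edgeR adjusted p = 0.420). It was -0.43 for group B against group R (95% interval -1.21 to 0.34, adjusted p = 0.619) and -0.22 for group C against group B (95% interval -1.07 to 0.62, adjusted p = 0.861). Without coconut oil pig 2, which had by far the highest level of its group, the difference between group R and group C was -1.05 with an adjusted p of 0.135, and without rapeseed oil pig 5 it was -0.36. Leaving out 1 pig moved the FASN value of group B against group R to between -0.84 (without beef tallow pig 3) and -0.13 (without rapeseed oil pig 5).

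ACACA (ENSSSCG00000017694, chromosome 12 from 38580916 to 38875067) encodes the acetyl-CoA carboxylase that commits acetyl-CoA to fatty acid synthesis. Its mean was 32.8 ± 6.62 CPM with rapeseed oil (SD, n = 5), 35.9 ± 3.21 CPM with beef tallow (n = 5) and 32.2 ± 20.1 CPM with coconut oil (n = 6). The group means were close, but group C spread from 16.8 to 68.4 CPM, with 4 of its pigs below all of group B. The log2 fold change was 0.13 for group B against group R (95% interval -0.29 to 0.55, adjusted p = 0.813), -0.06 for group C against group R (95% interval -0.73 to 0.62, adjusted p = 0.961) and -0.17 for group C against group B (95% interval -0.85 to 0.51, adjusted p = 0.869).

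ACLY (ENSSSCG00000017421, chromosome 12 from 20796678 to 20841301) encodes ATP citrate lyase, which releases acetyl-CoA from citrate in the cytosol. The 5 pigs of group R lay between 7.29 and 13.4 CPM and those of group B between 5.44 and 16.6 CPM. In group C the lowest, median and highest values were 9.52, 15.4 and 20.3 CPM, so the groups overlapped. Unlike MLXIPL and FASN, the sign of its difference from group R to group C was positive, at 0.49 on the log2 scale (standard error 0.30, 95% interval -0.13 to 1.11, adjusted p = 0.510). For group C against group B it was 0.45 (95% interval -0.25 to 1.15, adjusted p = 0.622) and for group B against group R 0.05 (95% interval -0.66 to 0.76, adjusted p = 0.965). Between 5 and 33 reads per pig stood behind these values.

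TKFC (ENSSSCG00000013087, chromosome 2 from 10158183 to 10171452) encodes triokinase, which phosphorylates the glyceraldehyde that fructose breakdown yields. Its means were nearly equal, at 55.4 ± 21.5 CPM with rapeseed oil (SD, n = 5), 57.0 ± 24.4 CPM with beef tallow (n = 5) and 56.4 ± 23.9 CPM with coconut oil (n = 6). The 3 log2 fold changes lay between -0.03 and 0.05, with adjusted p-values from 0.962 to 0.994. The 95% interval for group C against group R was -0.61 to 0.63, so a difference within that range was not excluded here.

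The remaining 3 genes had too few reads for the filter, and their values come from the edgeR fit without it. ME1 (ENSSSCG00000004454, chromosome 1 from 82799878 to 82989895), the cytosolic malic enzyme gene that supplies NADPH, had 2 to 21 reads per pig. Its mean was 6.32 ± 2.77 CPM with rapeseed oil (SD, n = 5), 5.92 ± 3.63 CPM with beef tallow (n = 5) and 9.98 ± 4.31 CPM with coconut oil (n = 6), with overlap between all groups. The log2 fold change of group C was 0.88 against group B (95% interval 0.03 to 1.74, unadjusted p = 0.0430, adjusted p = 0.539) and 0.71 against group R (95% interval -0.07 to 1.49, adjusted p = 0.564).

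GPAM (ENSSSCG00000010631, chromosome 14 from 122538600 to 122582390) encodes the mitochondrial acyltransferase that starts triglyceride assembly, and 0 to 7 reads per pig fell on it. Of the 6 coconut oil pigs, 5 had at most 1 read, and pig 3 had 6. The log2 fold change of group C was -1.26 against group R (95% interval -2.74 to 0.21, adjusted p = 0.591) and -1.37 against group B (95% interval -2.84 to 0.10, adjusted p = 0.589). PKLR (ENSSSCG00000026149, chromosome 4 from 94536978 to 94546561), the gene of liver pyruvate kinase and a textbook target of ChREBP, had at most 5 reads in a pig and 0 reads in 5 of the pigs. Its intervals ran from -2.24 to 2.80 on the log2 scale over the 3 pairs, so its diets could not be compared with so few reads.

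**Figure D2:**
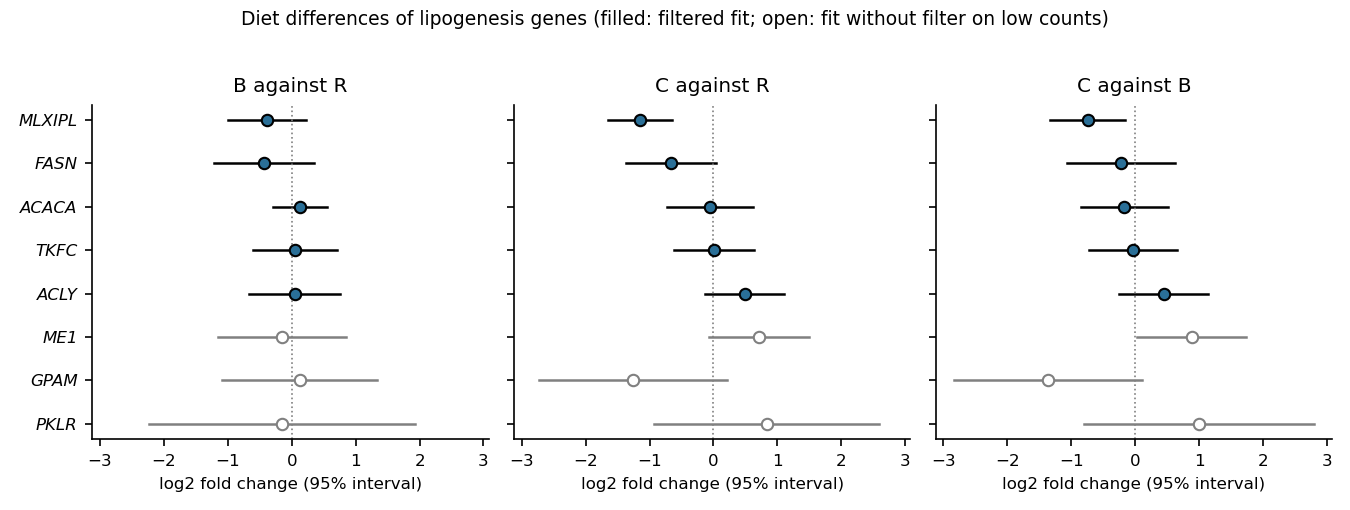
Log2 fold change of each lipogenesis gene in the 3 pairs of diets, with lines for the 95% interval; filled points are from the fit with the filter on low counts, and open points for ME1, GPAM and PKLR from the fit without it. The interval of MLXIPL for group C against group R, -1.66 to -0.65, lies wholly below 0, and that of FASN, -1.37 to 0.05, reaches 0.

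By edgeR, 0 of the 5 genes tested passed an adjusted p of 0.05 in the pair of rapeseed oil and beef tallow, where 1.11% of all 6318 genes tested passed. The same count was 0 of 5 for rapeseed oil and coconut oil (0.138% of 6528 genes passed), 0 of 5 for beef tallow and coconut oil (0.0587% of 6812), and 0 of 5 in the test over the 3 diets (0.711% of 6891). At an unadjusted p below 0.05 there were 0, 1, 1 and 1 of them in these comparisons, MLXIPL each time, against 15%, 13%, 11.5% and 15.9% of all genes tested. DESeq2 called 0 of them for rapeseed oil and beef tallow (1.23% of all genes fitted), 1 for rapeseed oil and coconut oil (0.591%), 0 for beef tallow and coconut oil (0.299%) and 1 over the 3 diets (1.47%), again MLXIPL. It fitted 8 of the genes and gave an adjusted p to 4 of them in each of these comparisons. Of all genes fitted, 6032 of 15123, 3414 of 15216, 3450 of 15376 and 5399 of 15842 had a DESeq2 adjusted p, in the same order. Only these could be called, so the DESeq2 shares would be higher over them alone. The number of all genes called by edgeR moved with single pigs, from 70 to between 9 (without rapeseed oil pig 5) and 149 (without beef tallow pig 3) for groups R and B, from 9 to between 3 (without rapeseed oil pig 3) and 27 (without coconut oil pig 3) for groups R and C, and from 4 to up to 9 (without beef tallow pig 2) for groups B and C.

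Spread between pigs of a diet was compared with the spread that counting alone gives, taken as the Poisson coefficient of variation at the mean number of reads. For FASN the coefficient of variation was 45.0%, 60.1% and 62.3% in groups R, B and C, against a counting error of 6.09% to 7.07%. For MLXIPL it was 33.3%, 41.8% and 29.2%, against 9.96%, 10.6% and 14.0%. Libraries of separate animals carry more than counting error in any case, so these figures are a description. For ACLY in group R the coefficient was 23.4% against a counting error of 30.4%, and for ACACA in group B it was 8.94% against 15.6%, below what counting alone would give.

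Gilts and barrows were compared over all 16 pigs with diet as a term, since the sexes were unevenly spread over the diets. No lipogenesis gene passed by edgeR, with 0 of 5 tested at an adjusted p of 0.05 (0.0786% of 6365 genes passed), 0 at an unadjusted p below 0.05 (4.9% of all genes tested), and 0 by DESeq2 (0.0694% of all genes fitted). The log2 fold change of barrows against gilts was 0.13 for MLXIPL (95% interval -0.35 to 0.62), 0.08 for FASN (95% interval -0.61 to 0.77), 0.30 for ACACA (95% interval -0.21 to 0.81), 0.11 for TKFC (95% interval -0.46 to 0.67) and -0.37 for ACLY (95% interval -0.90 to 0.16). ME1, in the fit without the filter, was at 0.80 (95% interval 0.12 to 1.47, unadjusted p = 0.0211, adjusted p = 0.891).

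Within diets, however, FASN lay on opposite sides for the sexes in groups R and B. The share of all genes whose sexes separate within a diet was not counted, so these separations are a description. In group R the barrows, at 260.2 and 467 CPM, were above the 3 gilts, at 141 to 237 CPM. In group B the 3 barrows, at 76.9 to 181 CPM, were below the 2 gilts, at 218 and 385 CPM. In group C the sexes overlapped, with gilts at 119 to 165 CPM and barrows at 67.8 to 372 CPM. The edgeR interaction of diet and sex gave FASN an unadjusted p of 0.0116 and an adjusted p of 1, and no gene of 7677 tested passed (0% called), while DESeq2 called 1 of 15842 (0.00631%), which was not FASN. Without the filter on low counts FASN did pass (edgeR adjusted p = 0.000506), as 1 of 36 genes among 15842 (0.227%).

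ACLY separated in the same way, with barrows at 12.5 and 13.4 CPM above gilts at 7.29 to 11.4 CPM in group R, and barrows at 5.44 to 9.51 CPM below gilts at 14.1 and 16.6 CPM in group B. Its interaction had an unadjusted p of 0.0571 and an adjusted p of 1. ME1 separated in group B alone, where the 3 barrows (7.62 to 9.48 CPM) lay above the 2 gilts (1.51 and 2.56 CPM). For MLXIPL, ACACA and TKFC the sexes overlapped in each diet, and their edgeR interaction p-values were 0.166, 0.1097 and 0.696 before adjustment. Each sex held only 2 or 3 pigs in a diet, so that a gene can separate by chance. Of the 6 lipogenesis genes tested for the interaction, 0 passed by edgeR and 0 by DESeq2, and only FASN had an unadjusted p below 0.05 in either, against 3.44% of all genes tested in edgeR.

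**Figure D3:**
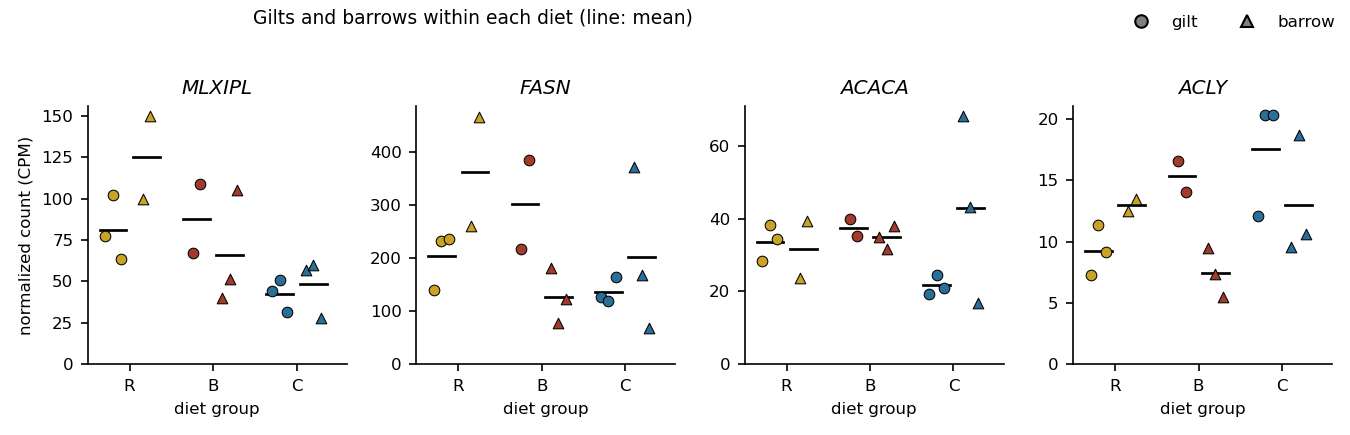
Normalized counts (CPM, linear axes from 0) of MLXIPL, FASN, ACACA and ACLY in gilts (circles) and barrows (triangles) of each diet group, with a line at each mean. For FASN and ACLY the barrows lie above the gilts in group R and below them in group B, and the sexes overlap in group C.

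The 5 genes with a median of at least 10 reads were compared with each other across the 16 pigs on log2 CPM, which gives 10 pairs that share library and scaling factor. Pearson's r ranged from -0.18 to 0.63, and 8 of the 10 were positive. None passed after Benjamini-Hochberg adjustment over the 10 pairs in a two-sided permutation test. MLXIPL and FASN had the highest r, 0.63 (permutation p = 0.00882, adjusted 0.0743), with a Spearman's rho of 0.60 (permutation p = 0.0154, adjusted 0.0992). Without the 2 pigs farthest from the median of MLXIPL r was 0.37, and over deviations from the diet means it was 0.56. Leaving out the farthest pigs narrows the range of MLXIPL, which can lower r by itself.

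FASN and ACACA, whose products act one after the other, had an r of 0.59 (permutation p = 0.0149, adjusted 0.0743) and a rho of 0.55 (permutation p = 0.0287, adjusted 0.0992). Without the 2 farthest pigs r was 0.47, and within diets it was 0.63. FASN and TKFC had an r of 0.52 (permutation p = 0.0398, adjusted 0.133) and a rho of 0.53 (permutation p = 0.0369, adjusted 0.0992), with an r of 0.29 without the 2 farthest pigs and 0.57 within diets. MLXIPL and ACLY, with an r of -0.18 (permutation p = 0.505, adjusted 0.555) and a rho of -0.11 (permutation p = 0.688, adjusted 0.765), were the pair with the lowest r. Without the 2 farthest pigs r was -0.33, while within diets it was 0.19.

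**Figure D4:**
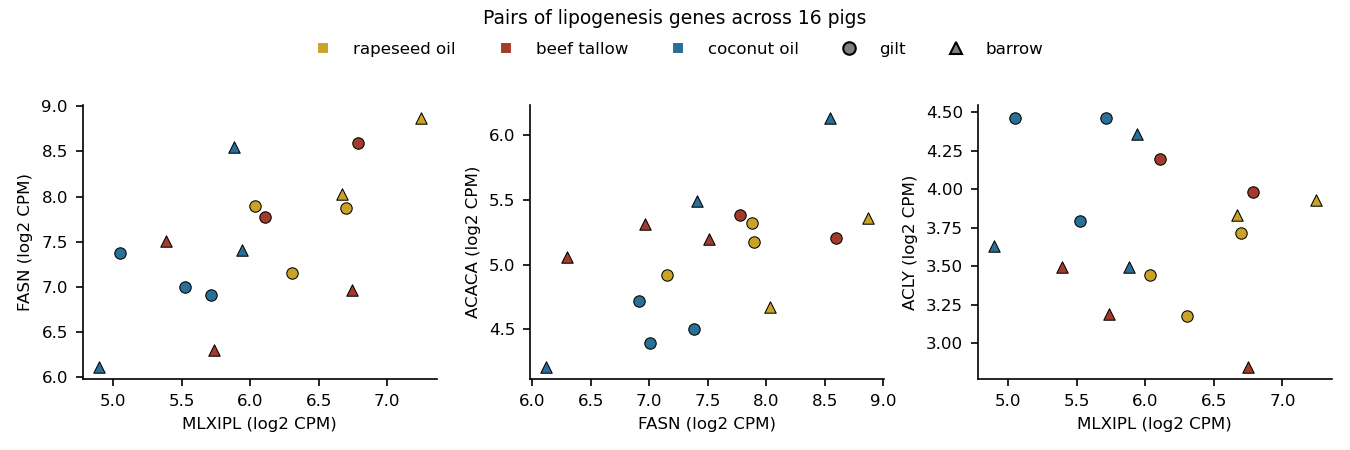
Log2 CPM of 3 pairs of lipogenesis genes across the 16 pigs, coloured by diet, with circles for gilts and triangles for barrows; the axes do not start at 0. Pearson's r was 0.63 for MLXIPL and FASN, 0.59 for FASN and ACACA and -0.18 for MLXIPL and ACLY, and none passed after adjustment over the 10 pairs.

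Among 5453 genes with a symbol that were tested in all 3 pairs of diets, the 5 most like MLXIPL over the 16 pigs by Spearman's rho were TRAPPC14 (0.88), EPHA1 (0.86), CD82 (0.86), NUCB1 (0.86) and GABARAP (0.85). Within diets their Pearson's r with MLXIPL was 0.64, 0.77, 0.64, 0.73 and 0.52. FASN stood at rank 96 with a rho of 0.60, ACACA at rank 199 with 0.53, TKFC at rank 1129 with 0.24 and ACLY at rank 3370 with -0.11. These are descriptions over pigs that share library and scaling factor, and GABARAP, EPHA1, CD82, NUCB1 and TRAPPC14 are not genes of fatty acid synthesis.

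Genes around the lipogenic pathway were read from 6 further lists. Of the 11 genes that supply NADPH, citrate and acetyl-CoA or assist the synthases, 8 were tested between group R and group B, and 1 passed, where 1.11% of all genes did. At an unadjusted p below 0.05 there were 2 of the 8, against 15% of all genes, and 7 of the 8 had a negative log2 fold change (median -0.13, against 0.01 over all genes tested). The gene that fell was THRSP, which encodes Spot 14, a nuclear protein linked to lipogenesis. It had 87.5, 154.8, 157.6, 107.3 and 329 CPM in group R, and 42.2, 59.2, 23.6, 28.5 and 70.7 CPM in group B, so the groups did not overlap (1.95% of all genes tested lay so). By DESeq2 THRSP was also the 1 gene of this list that passed in that pair, and the paper lists it there among its top genes. Against group C, 0 passed in either pair by edgeR or DESeq2, with 1 at an unadjusted p below 0.05 in each, THRSP both times, against 13% and 11.5% of all genes. In group C, THRSP ranged from 18.5 to 145 CPM and overlapped with both.

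The log2 fold change of THRSP was -1.92 for group B against group R (standard error 0.36, edgeR adjusted p = 0.0260), -0.97 for group C against group R (standard error 0.37, adjusted p = 0.272) and 0.96 for group C against group B (standard error 0.38, adjusted p = 0.359). The call between group R and group B held in 6 of 10 fits that left out 1 pig, and was lost without rapeseed oil pig 3 or 5 or beef tallow pig 1 or 4, with log2 fold changes of -1.51 to -2.14 over the 10 fits. MID1IP1, which encodes a Spot 14 related partner of acetyl-CoA carboxylase, had a log2 fold change of -0.67 for group C against group R (adjusted p = 0.420). ACSS2, the cytosolic acetyl-CoA synthetase gene, was at -0.64 for group B against group R (adjusted p = 0.289) and 0.49 for group C against group B (adjusted p = 0.537).

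Of the 19 genes of sugar entry and carbohydrate response, 12 were tested and 0 passed by edgeR or DESeq2 in each pair of diets, with edgeR counts of 2, 3 and 1 at an unadjusted p below 0.05 for groups R and B, R and C, and B and C, against 15%, 13% and 11.5% of all genes. ARRDC4, an arrestin-domain gene known to respond to glucose through ChREBP, had a log2 fold change of -0.94 for group C against group R (standard error 0.40, adjusted p = 0.315). GCKR, a gene of liver glucose metabolism, was at -0.35 against group R (adjusted p = 0.362) and -0.41 against group B (adjusted p = 0.425) in group C. KHK, the fructokinase gene, was at 0.38 for group C against group B (adjusted p = 0.479). For group B against group R, FBP1 of gluconeogenesis was at 0.53 (adjusted p = 0.181) and SLC2A2, the liver glucose transporter gene, at -0.37 (adjusted p = 0.285).

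Of 20 genes of SREBP processing and upstream control, 14 were tested between groups R and B and 15 in each other pair, and 0 passed by edgeR or DESeq2, with 1 at an unadjusted p below 0.05 in each pair, against 15%, 13% and 11.5% of all genes. NR1H2, which encodes the oxysterol receptor LXR beta, had a log2 fold change of 0.49 for group B against group R (adjusted p = 0.217). INSIG2, which encodes a protein that retains SREBPs in the endoplasmic reticulum, was at -0.48 there (adjusted p = 0.416) and at 0.52 for group C against group B (adjusted p = 0.436). The AMP-activated kinase subunit genes PRKAG1 and PRKAB1 were at -0.56 (adjusted p = 0.349) and -0.58 (adjusted p = 0.441) for group C against group R. IRS1, the insulin receptor substrate gene, was at -0.60 for group C against group B (adjusted p = 0.423).

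In triglyceride assembly, 7 of 12 listed genes were tested, and all 7 had a positive log2 fold change for group B against group R (median 0.53, against 0.01 over all genes). By edgeR 1 of the 7 passed in that pair, where 1.11% of all genes did. The gene was LPIN2, which encodes a phosphatidate phosphatase. It had 83.1, 170, 87.6, 153.9 and 94.1 CPM in group R and 293, 193, 216, 307 and 178.5 CPM in group B, without overlap (2.64% of all genes tested lay so), and 169.6 to 276 CPM in group C. Its log2 fold change was 1.01 for group B against group R (standard error 0.24, edgeR adjusted p = 0.0495). That call was lost with RLE in place of TMM scaling (0.0529), with counts thinned to the smallest library (0.0515) and with a replicate block (0.0801). It was also lost in 7 of 10 fits without 1 pig, all but those without rapeseed oil pig 2 or 4 or beef tallow pig 3. LPIN2 passed by DESeq2 (adjusted p = 0.00503) and in edgeR without the filter (0.00289) or with all 16 pigs in 1 fit (0.0237). Other edgeR fits that passed had sex as a covariate (0.0356), a robust prior (0.0395) or at least 10 reads in every pig (0.0411). At an unadjusted p below 0.05 there were 2 of the 7 in that pair (15% of all genes). In group C against group R 0 of the 7 passed by edgeR (0.138% of all genes did), with 2 at an unadjusted p below 0.05 (13% of all genes). LPIN2 was at 0.81 (standard error 0.20, adjusted p = 0.104), and DESeq2 gave an adjusted p of 0.0141. In group C against group B 0 of the 7 passed by edgeR (0.0587% of all genes did), with 1 at an unadjusted p below 0.05 (11.5% of all genes).

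LPIN1, a related phosphatase gene, had log2 fold changes of 0.70 for group B (adjusted p = 0.289) and 0.73 for group C (adjusted p = 0.299), both against group R. GPAT4 and ACSL1, for a microsomal acyltransferase and an acyl-CoA synthetase, were at -0.83 (adjusted p = 0.434) and -0.39 (adjusted p = 0.592) for group C against group B. Of 8 genes of desaturation and elongation, 5 were tested and 0 passed by edgeR or DESeq2 in any pair, with 1 at an unadjusted p below 0.05 in each, against 15%, 13% and 11.5% of all genes. All 5 had a negative log2 fold change for group B against group R (median -0.18) and a positive one for group C against group B (median 0.39). SCD, the gene of the desaturase that makes oleate, was at -0.64 (adjusted p = 0.259) and ELOVL5, an elongase gene, at -0.29 (adjusted p = 0.421) for group B against group R. FADS2, which encodes the first desaturase of polyunsaturated fatty acids, was at 0.50 against group R (adjusted p = 0.224) and at 0.66 against group B (adjusted p = 0.292) in group C. ELOVL6, the elongase gene for palmitate, was at 0.42 (adjusted p = 0.460) and 0.61 (adjusted p = 0.473) in the same pairs.

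Cholesterol synthesis and uptake, driven by the related factor SREBP2, had the list median farthest from 0 in each pair of diets among the 7 lists. Of 18 genes tested, 17 had a negative log2 fold change for group B against group R (median -0.71), with 11 at an unadjusted p below 0.05 (15% of all genes). By edgeR 2 passed, where 1.11% of all genes did, FDFT1, the squalene synthase gene, at -1.80 (standard error 0.32, adjusted p = 0.0204), and MVD, the mevalonate diphosphate decarboxylase gene, at -1.81 (standard error 0.34, adjusted p = 0.0240). DESeq2 called 7 of the 19 genes of the list it fitted there, all negative, and 1.23% of all genes. The paper, with the same tool, also reports FDFT1 and MVD as lower with beef tallow. The edgeR call was lost for FDFT1 without rapeseed oil pig 3 or 5 or beef tallow pig 4, and for MVD without rapeseed oil pig 1, 3 or 5 or beef tallow pig 4 or 5. For group C against group B, 16 of the 18 were positive (median 0.61) and 0 passed by edgeR (0.0587% of all genes did), with 10 at an unadjusted p below 0.05 (11.5% of all genes). FDFT1 was at 1.35 there (adjusted p = 0.0668, and 0.000710 by DESeq2) and SQLE, the squalene epoxidase gene, at 0.94 (adjusted p = 0.257). For group C against group R the median was -0.21 and 0 passed by edgeR or DESeq2, with 2 at an unadjusted p below 0.05 (13% of all genes), DHCR7, for the last enzyme of cholesterol synthesis, at -0.48 (adjusted p = 0.270) and MVK, for mevalonate kinase, at -0.53 (adjusted p = 0.314).

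**Figure D5:**
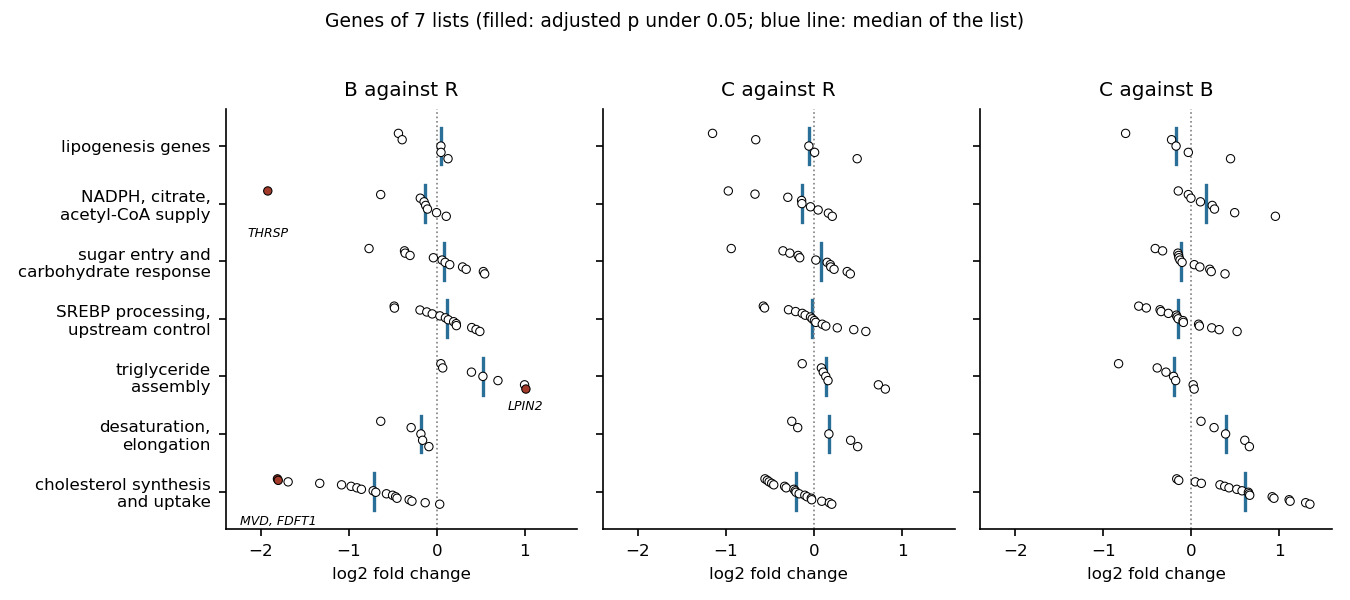
Log2 fold changes of the tested genes of 7 lists in the 3 pairs of diets, with filled points for an edgeR adjusted p under 0.05 and a blue line at each list's median. The 5 lipogenesis genes tested stand around 0 for group B against group R (median 0.05), where the cholesterol genes have a median of -0.71 and THRSP, LPIN2, MVD and FDFT1 are filled.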

How the data were processed

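The 16 libraries were made with a QuantSeq 3′ mRNA-Seq kit. The authors trimmed the reads, used TopHat for mapping to the Sscrofa11.1 assembly and HTSeq for counting on Ensembl genes, and deposited raw counts, which are whole numbers. A read with several alignments was assigned to no gene, and 5 tally rows of reads on no gene stayed out of all tests. Identifiers were named from a gene table (14857 of 25880 had a symbol), and positions are those of RefSeq's Sscrofa11.1 annotation, matched by symbol. Intervals of counts cover counting error only.

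Counts were scaled by TMM, and each pair of diets was fitted on its own pigs, without covariates, by the quasi-likelihood F test of edgeR 4.0.16 in R 4.3.3. Genes were kept by filterByExpr (minimum count 10, minimum total 15), p-values were adjusted by Benjamini-Hochberg over all genes tested, and the threshold was 0.05 with no limit on fold change. In each pair the reference is the diet named first. A standard error is the log2 fold change divided by the root of F. Correlations used log2 CPM with a prior count of 2 and 100000 permutations. Alternatives were DESeq2 1.42.0 on all genes with a read, RLE scaling, other filters, all 16 pigs in 1 fit, sex as a covariate, a replicate block, thinned counts, a robust prior and leaving out each pig. Methods were tested on simulated data. The listed genes and the other 6 lists were chosen with earlier results of these data known, and named genes are every listed lipogenesis gene, each called gene of a list and the 2 with the smallest p per list and pair. For the interaction, the alternatives other than the filter and RLE were chosen after seeing the data. The sources name different kits for RNA isolation. Promoter sequences were not used here, so the planned motif search was not run. Some genes of these lists are not reported here on their own, but stayed in the fits and in the counts.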

Additional observations from a re-analysis of the deposited data

Results flagged for a closer look

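In 24 groups of pigs (8 genes by 3 diets), 2 held a pig far from the rest, while chance flags about 1 group in 20. Coconut oil pig 2 had 372 CPM of FASN, and the other 5 pigs of its group had 67.8 to 168 CPM. Coconut oil pig 3 had 8.70 CPM of GPAM, from 6 reads, and the other 5 had 0 to 0.865 CPM.

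The share of all genes whose sexes separate within a diet was not counted. The difference between gilts and barrows went in opposite directions in group R and group B for FASN, with an unadjusted edgeR interaction p of 0.0116, and for ACLY, with 0.0571. Both had an adjusted p of 1.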

How the results depend on the processing

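Few reads limited ACLY, ME1, GPAM and PKLR, and SREBF1 could not be judged. Whether reads of these genes ended outside their gene models was not tested. The number of lipogenesis genes passing between group R and group C was 0, and 1, MLXIPL, with DESeq2, at least 10 reads in every pig, no filter or a robust prior, and 0 to 1 without each pig in turn. Over the 3 diets it was 1, MLXIPL, with DESeq2 and without the filter. In the interaction it was 1, FASN, in edgeR without the filter (adjusted p = 0.000506, with 0.227% of all genes called), and the cause was not tested. Without each pig the unadjusted interaction p of FASN was 0.00081 to 0.0905. In every other comparison and alternative run, 0 passed.

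Signs that turned belonged to small differences. With the replicate block these were ACLY in group B against R (-0.014), FASN (0.050) and TKFC (0.18) in group C against B. ACACA in group C against R was 0.067 with thinned counts, TKFC was -0.017 with sex as a covariate, and the r of ACACA with ACLY was 0.17 with thinned counts. Leaving out each pig gave, for group B against R, -0.17 to 0.19 for ACLY and -0.18 to 0.29 for TKFC. It gave -0.44 to 0.10 for ACACA and -0.14 to 0.24 for TKFC in group C against R, and -0.61 to 0.18 for FASN and -0.20 to 0.19 for TKFC in group C against B. For barrows against gilts it gave -0.20 to 0.34 for FASN, -0.020 to 0.31 for MLXIPL and -0.080 to 0.32 for TKFC. The causes were not tested.

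Pigs with the same number in 2 diets had low correlations of their deviations from the diet means. These were -0.09 to 0.14 for groups R and B, 0.0005 to 0.11 for R and C and -0.25 to 0.09 for B and C. Whether the numbers mark a pairing was not tested. With the replicate block, MLXIPL in group C against R had an adjusted p of 0.195 and was at -0.55 in group C against B (adjusted p = 0.732), LPIN2 in group B against R had an adjusted p of 0.0801, no other call among the genes named changed, and 35 in place of 70 genes passed between groups R and B. Each sample correlated best with its own number for 1, 3 and 1 of 5 pigs of the first diet in groups R and B, R and C, and B and C.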

Other observations

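A pair of genes from the list of sugar entry and carbohydrate response was chosen here after their values were seen. MLX, the dimer partner of ChREBP, had 1 to 10 reads per pig and failed the filter on low counts. TXNIP, a gene known to respond to glucose through ChREBP, was well counted, and its log2 fold change was 0.34 for group B and 0.23 for group C against group R (edgeR adjusted p = 0.482 and 0.744).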
